A study of Mus musculus with 8 samples.

Results

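The let-7 family other than let-7e was followed in the livers of diabetic db/db mice and db/+ control mice. Its 8 members are mmu-let-7a, mmu-let-7b, mmu-let-7c, mmu-let-7d, mmu-let-7f, mmu-let-7g, mmu-let-7i and mmu-miR-98, taken by name from the 567 mouse microRNAs (miRNAs) that the array measures, of which 127 were bright enough to test. The series compared 4 db/+ with 4 db/db livers on 1-colour Agilent miRNA arrays, 1 array per animal, with 100 ng of total RNA per array. The db/db mice carry 2 copies of the db allele, a defect of the leptin receptor gene, and become obese, insulin resistant and diabetic, while the db/+ mice carry 1 copy and served as nondiabetic controls. Both are C57BL/KsJ animals by the labels, which give no treatment, and the sources used here do not give their sex or their age at sampling. The defect is present in every tissue of the animal, and its effects on the liver cannot be told apart from those of obesity or high glucose in this design.

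Mature let-7 miRNAs are cut from hairpin precursors by Drosha and Dicer and are loaded onto Argonaute proteins. They bind messenger RNAs mainly through their seed, the bases next to the 5′ end, so members with the same seed share many targets. The RNA-binding protein Lin28 blocks the maturation of let-7 precursors, and known let-7 targets include Hmga2, Ras genes and the insulin and insulin-like growth factor receptors, through which let-7 has been tied to glucose metabolism. In adult liver the family is abundant.

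The mature sequences are shown because all members share the seed, so the family differs only outside it, by few bases that the array probes must tell apart. They are RefSeq records (assembly GRCm38.p6), 5′ to 3′, with the seed (bases 2 to 8) in capitals, and let-7e is added as the remaining member of the seed family.
let-7a: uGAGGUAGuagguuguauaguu
let-7b: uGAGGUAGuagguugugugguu
let-7c: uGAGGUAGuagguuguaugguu
let-7d: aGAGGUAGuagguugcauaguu
let-7f: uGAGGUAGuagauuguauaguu
let-7g: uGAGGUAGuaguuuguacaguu
let-7i: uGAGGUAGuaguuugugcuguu
miR-98: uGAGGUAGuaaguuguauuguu
let-7e: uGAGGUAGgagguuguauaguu

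All 9 sequences are 22 bases long. A RefSeq mature sequence could be matched by name to 172 of the array's miRNAs, and among these the seed GAGGUAG was found in these 9 alone. Counted from the 5′ end, with the let-7a base first, let-7c differs from let-7a by A19G alone and let-7f by G12A alone. let-7b carries A17G and A19G, let-7d carries U1A and U16C, let-7g carries G12U and U18C, and miR-98 carries G11A and A19U. The most distant member, let-7i, carries G12U, A17G, U18C and A19U. let-7e differs from let-7a by U9G, next to the seed. The count of G and C bases runs from 7 in let-7f and miR-98 through 8 in let-7a and let-7g and 9 in let-7c, let-7d and let-7i to 10 in let-7b. Of the 28 pairs of members 3 differ at 1 base and 8 at 2 bases, so signal may be shared between probes of close members and their separate values are uncertain.

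The genes lie in several clusters. In the coordinates of the array files (mm9), the longer probe of let-7a targets chr13:48633608-48633627, that of let-7f chr13:48633258-48633278 and that of let-7d chr13:48631447-48631465. RefSeq places this cluster (Mirlet7a-1, Mirlet7f-1, Mirlet7d) outside other genes. The probes of let-7b (chr15:85537758-85537776) and let-7c (chr15:85537049-85537067) target another cluster, within the long noncoding RNA gene Lncppara. miR-98 (chrX:148347772-148347793) lies beside Mirlet7f-2 within Huwe1, the gene of a ubiquitin ligase. let-7g (chr9:106081178-106081198) lies within Wdr82, and let-7i (chr10:122422754-122422774) stands alone, outside other genes. let-7a, let-7c and let-7f each have 2 gene copies with the same mature sequence, so the array cannot say from which copy their signal came.

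Levels are given as scaled signal on the log2 scale, scaled so that the 89 miRNAs found on every array have the same median on each. The unscaled signal spanned 26.8-fold from the dimmest to the brightest db/+ array and 1.26-fold in db/db. The factors were 5.63, 0.56, 1.58 and 0.21 for db/+ replicates 1 to 4 and 0.85 to 1.06 in db/db, so the db/+ strain held the 2 dimmest arrays (replicates 2 and 4) and the 2 brightest (replicates 1 and 3). The liver miRNA miR-122 was at 15.38 ± 0.70 in db/+ and 15.48 ± 0.06 in db/db (SD, n = 4 each). All db/db arrays lay in 1 row of the slide and all db/+ arrays in the other, so a strain effect cannot be told apart from one of the row.

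All 8 members were detected on all 8 arrays, none was saturated and none needed the floor set for low values. The exception in signal quality was miR-98 on db/+ replicate 4, the dimmest array, where 10% of its spots were well above background, against 100% on every other array. On that same array 95% of the spots of let-7i and 65% of those of let-7e were well above background.

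None of the 8 members passed the test between the strains, although each of their log2 fold changes, db/db minus db/+, was above 0 (limma, Benjamini-Hochberg adjustment over 127 miRNAs, threshold 0.05). Over all 127 miRNAs 15% passed, and 66.1% had a value above 0. The members' median was 0.29, beside 0.15 over all 127. At an unadjusted p under 0.05 there was 1 member, let-7c, where 26% of all 127 were so, and SAM, the method the series names, also called 0 of the 8, where it called 18.1% of all. The strains did not overlap for 2 of the 8, let-7a and miR-98, beside 22.8% of all miRNAs tested. The share of members that did not overlap was thus near the background, and that of calls below it. In the fit as reported, the 95% intervals of the 8 log2 fold changes reached at most 0.94, for let-7b, and at the other end -0.41, for let-7i. The upper end is below a log2 fold change of 1 in this fit but not in every fit, as let-7b had 0.73 ± 0.18 (SE) with arrays weighted by quality.

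In the chromosome 13 cluster, let-7a measured 11.80, 11.78, 11.65 and 11.63 on db/+ replicates 1 to 4 and 11.86, 12.09, 11.93 and 12.18 on db/db replicates 1 to 4. Every db/db array lay above every db/+ array, but the lowest db/db and the highest db/+ value lay closer together than the db/+ values ranged. The log2 fold change was 0.30 ± 0.14 (SE), 1.23-fold, with a 95% interval of -0.0049 to 0.61, and did not pass (limma adjusted p = 0.187). Without db/+ replicate 4, in a fit that scaled the arrays kept anew, it was 0.17. On the reported scaling the other db/+ arrays lay at 11.65 to 11.80, against a db/db mean of 12.01. The new scaling thus also lowered this value.

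let-7f, which is made from the same cluster and from the X-linked copy beside miR-98, measured 11.70, 11.59, 11.53 and 11.21 in db/+ and 11.81, 11.82, 11.68 and 11.84 in db/db. The lowest value was that of the dimmest array, db/+ replicate 4, and the strains overlapped only through db/+ replicate 1 and db/db replicate 3. Its log2 fold change was 0.28 ± 0.15 (SE; limma adjusted p = 0.256). Without db/+ replicate 4, with the arrays kept scaled anew, it was 0.08. On the reported scaling the other db/+ arrays lay at 11.53 to 11.70, against a db/db mean of 11.79. The new scaling thus also lowered this value.

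let-7d, the remaining member of that cluster, measured 10.12, 10.47, 9.98 and 10.49 in db/+ and 10.44, 10.65, 10.63 and 10.73 in db/db. Here db/+ replicates 2 and 4 were the high ones, and both lay above the lowest db/db array. The log2 fold change of let-7d was 0.35 ± 0.16 (SE; limma adjusted p = 0.194).

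let-7b, from the chromosome 15 cluster, was the member with the widest spread, measuring 10.58, 11.45, 10.53 and 11.57 in db/+ and 11.28, 11.50, 11.25 and 11.56 in db/db. The dim db/+ replicates 2 and 4 were as high as the db/db arrays, and the bright replicates 1 and 3 lay well below all of them. Its log2 fold change of 0.36 ± 0.26 (SE), with a 95% interval of -0.21 to 0.94, did not pass (limma adjusted p = 0.353). With a single bright db/+ array left out it was 0.21 (replicate 1) or 0.20 (replicate 3).

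let-7c, its neighbour, measured 10.68, 11.22, 10.75 and 11.21 in db/+ and 11.21, 11.47, 11.25 and 11.54 in db/db. The same db/+ arrays were high and low as for let-7b, over a narrower range, and the strains overlapped by the lowest db/db array alone. This was the largest log2 fold change of the 8, 0.40 ± 0.18 (SE), 1.32-fold, with a 95% interval of 0.0066 to 0.79 before and limma adjusted p = 0.182 after adjustment.

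let-7g, from Wdr82, measured 11.14, 11.45, 10.93 and 11.16 in db/+ and 11.25, 11.28, 11.22 and 11.28 in db/db. The db/db values all fell inside the range of the db/+ values. Its log2 fold change was 0.09 ± 0.15 (SE; limma adjusted p = 0.737). It ran from -0.016 without db/+ replicate 4, with the arrays kept scaled anew, to 0.18 without db/+ replicate 2. On the reported scaling db/+ replicate 4, at 11.16, lay near the db/+ mean of 11.17. The value of -0.016 thus came from the new scaling.

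let-7i, the member most distant in sequence, measured 8.87, 9.41, 8.57 and 9.08 in db/+ and 9.03, 8.87, 9.06 and 8.99 in db/db. The strains overlapped fully, and the log2 fold change was 0.0032 ± 0.19 (SE; limma adjusted p = 0.996), with a 95% interval of -0.41 to 0.42.

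miR-98, from Huwe1, was the dimmest member, at 6.33, 6.29, 6.33 and 6.14 in db/+ and 6.45, 6.39, 6.39 and 6.48 in db/db. The strains did not overlap, but db/+ replicate 3 and db/db replicate 3 nearly touched, and the lowest value came from the array where miR-98 was mostly not well above background. The log2 fold change was 0.15 ± 0.13 (SE; limma adjusted p = 0.411). Without that array, and with the arrays kept scaled anew, it was 0.011. On the reported scaling the other db/+ arrays lay at 6.29 to 6.33, against a db/db mean of 6.43, so the new scaling also lowered this value.

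**Figure D1:**
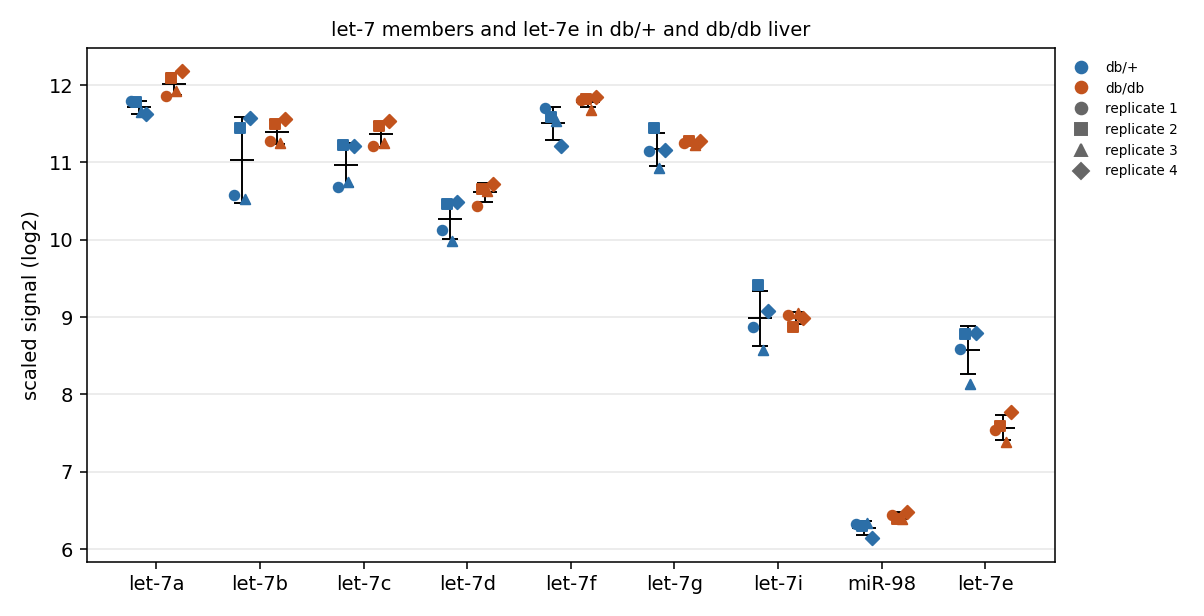
Scaled signal (log2) of the 8 members and of let-7e on each array, db/+ in blue and db/db in orange, with marker shapes for the replicates and black bars for the mean ± SD (n = 4 per strain). let-7a and miR-98 do not overlap between the strains, let-7b spreads from 10.53 to 11.57 in db/+, and let-7e is lower on every db/db array.

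Within the strains the members varied more among the db/+ livers, as did most of the 127 miRNAs tested, so this was not particular to the members. The SD was larger in db/+ for 7 of the 8, by 1.78 to 8.31 times, with 0.21 against 0.03 for let-7g and 0.56 against 0.16 for let-7b, while let-7a had 0.09 in db/+ and 0.15 in db/db. The array brightness, which also spread more in db/+, moved with this, and its part in the larger SD was not tested.

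The direction of the deviations followed the members' base composition. Between the dim db/+ arrays (replicates 2 and 4) and the bright ones (replicates 1 and 3), scaled signal differed by -0.22 for let-7f and -0.11 for miR-98, which have 7 G and C bases. For let-7a and let-7g, with 8, the differences were -0.02 and 0.27. Those of let-7d, let-7c and let-7i, with 9, were 0.43, 0.50 and 0.53, let-7e, also with 9, had 0.43, and let-7b, with 10, had 0.96. Members richer in G and C thus stood higher on the dim arrays, without exception between one count and the next in these 9 sequences. These are differences within 1 strain over 4 arrays, given as a description, and the animals of the dim and bright arrays differ as well. The probe targets also differed in length, from 18 and 19 bases for let-7b to 21 and 22 for miR-98. Those of let-7i and let-7f were alike, at 20 and 21. The part of target length was not tested.

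The ratio of let-7b to let-7f is free of array scaling, and is shown because it spread the most of the 28 pairs of members. let-7b has the most G and C bases, and let-7f and miR-98 the fewest. On the log2 scale it was 0.37 on the dimmest array (db/+ replicate 4) and -0.14 on the next (db/+ replicate 2). On the 4 db/db arrays, of middle brightness, it lay between -0.53 and -0.28. On the 2 brightest arrays it was -1.001 (db/+ replicate 3) and -1.12 (db/+ replicate 1). For this pair the db/db values lay between those of the dim and the bright db/+ arrays, and the strain difference of the ratio was 0.08. Other pairs did not follow that order throughout. let-7c minus let-7f was -0.37 on the dim db/+ replicate 2 and -0.60 to -0.31 in db/db, so db/db values lay on both sides of it. let-7a minus let-7f ran from 0.05 to 0.33 in db/db, on both sides of the 0.10 and 0.12 of the bright db/+ arrays and of the 0.19 of replicate 2.

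**Figure D2:**
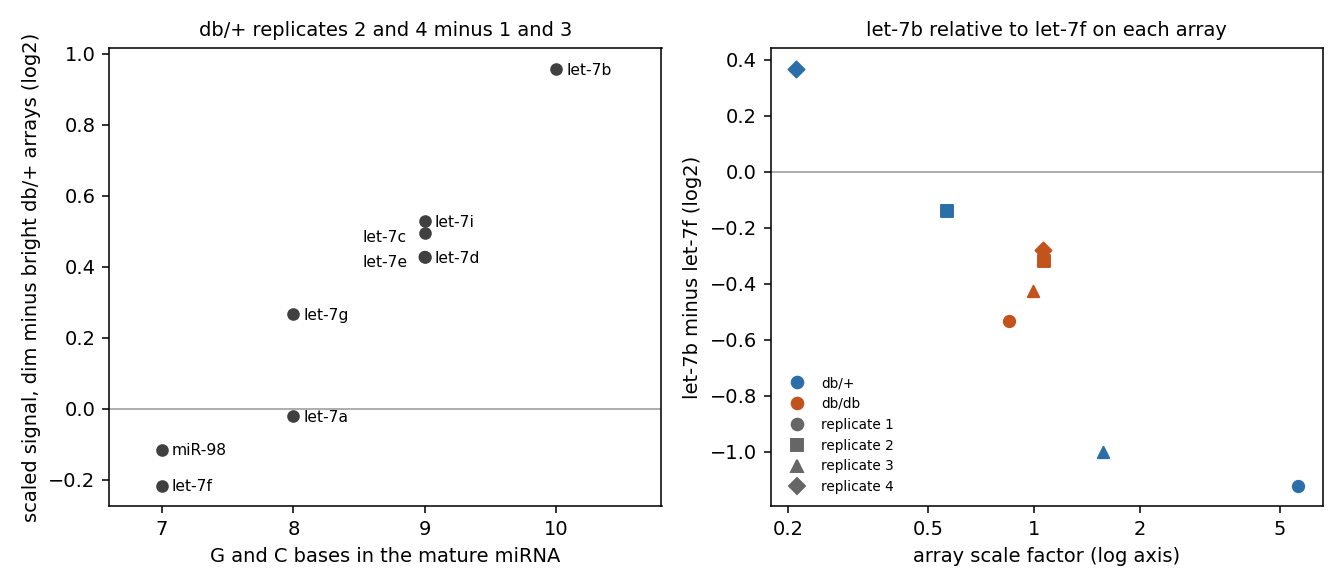
Left, difference in scaled signal (log2) between the dim and the bright db/+ arrays against the number of G and C bases, 1 point for each member and for let-7e, from -0.22 for let-7f to 0.96 for let-7b. Right, let-7b minus let-7f (log2) on each array against the array's scale factor on a log axis, with the db/db arrays (orange) between the dim and the bright db/+ arrays (blue).

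The calls of let-7b, let-7c and let-7d changed when the arrays were weighted. With the arrays weighted in limma by their estimated quality, db/+ replicates 2 and 4 had weights of 0.35 and 0.21 and replicates 1 and 3 of 1.54 and 1.21, beside 0.88 to 2.86 in db/db. let-7b, let-7c and let-7d then passed as higher in db/db, with log2 fold changes of 0.73, 0.62 and 0.51 (limma adjusted p = 0.0132, 0.0107 and 0.0132), where 33.1% of all 127 miRNAs passed. Over the alternatives tried, the limma adjusted p ran from 0.0132 to 0.993 for let-7b and for let-7d and from 0.0107 to 1 for let-7c. Without db/+ replicates 2 and 4, let-7b alone of the 8 passed, at 0.65 (limma adjusted p = 0.0396, where 13.8% of 167 miRNAs passed). That fit scaled the arrays kept anew, which placed the members' log2 fold changes lower than the reported scaling would. It put let-7f and miR-98 at -0.02 and -0.10. On the reported scaling let-7f measured 11.70 and 11.53 on db/+ replicates 1 and 3, below its db/db mean of 11.79. miR-98 measured 6.33 on both, below its db/db mean of 6.43. In that fit let-7c and let-7d had 0.46 and 0.37 (limma adjusted p = 0.109 and 0.0707). On the reported scaling let-7c measured 10.68 and 10.75 on db/+ replicates 1 and 3, against a db/db mean of 11.37. let-7d measured 10.12 and 9.98 there, against 10.61. The values of this fit thus do not show the removal of the dim arrays alone. Without db/+ replicates 1 and 3, let-7b was at -0.11, let-7c at 0.15, let-7d at 0.13 and let-7i at -0.26, and 0 members passed. These last 2 choices of arrays were made after the data were seen.

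**Figure D3:**
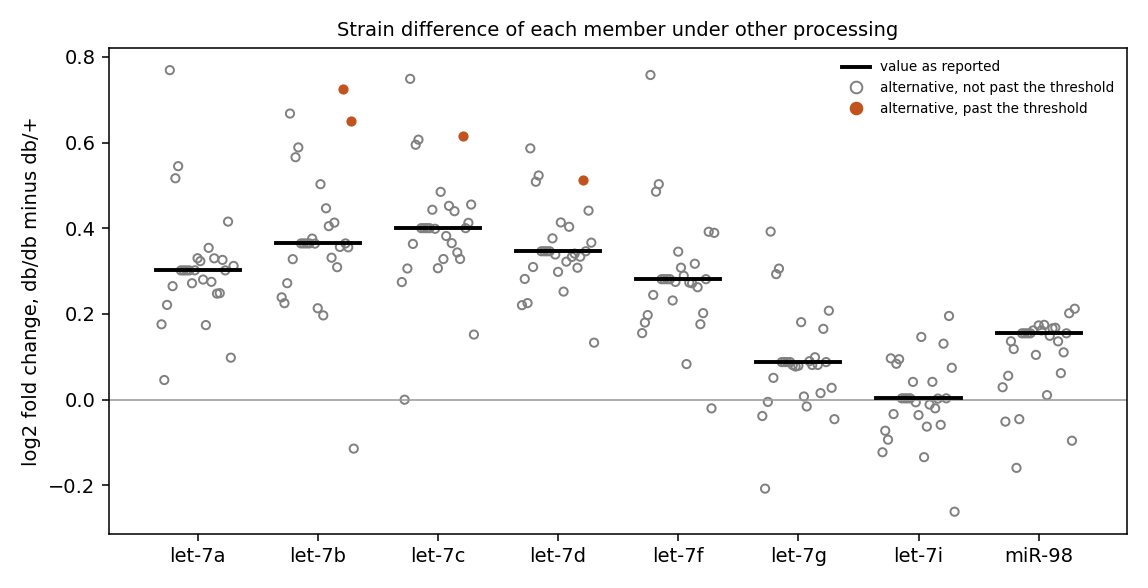
Log2 fold change, db/db minus db/+, of each member as reported (black bar) and under each alternative but the deposited scores (circles, filled where the member passed the threshold). let-7b spans -0.11 to 0.73, values above 0 pass for let-7b, let-7c and let-7d only, and let-7i lies on both sides of 0.

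Each member was measured by 2 probes of 10 spots each, for targets of 18 to 22 bases. Over a fit of 271 probes, 0 of the members' 16 probes passed, where 9.23% of all 271 did, and the 2 probes of a member had the same sign for all 8. Their log2 fold changes lay 0.03 apart for let-7b and 0.14 apart for let-7f, the closest and the widest of the 8 members.

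Relative to let-7e, every member was higher in db/db. let-7e, which carries the same seed but comes from another cluster within Spaca6, was at 8.59, 8.78, 8.13 and 8.79 in db/+ and 7.54, 7.59, 7.38 and 7.77 in db/db. All its db/db values lay below all its db/+ values, with a log2 fold change of -1.003 ± 0.18 (SE; limma adjusted p = 0.0063), a fall that was known when the comparison was chosen. The call of let-7e held in all 8 fits that left out 1 array and was lost with normexp background correction, at -0.75 (limma adjusted p = 0.0831), with raw median intensities, at -0.66 (limma adjusted p = 0.246), and with no scaling between arrays (limma adjusted p = 0.993). It was also lost with the filter on low values removed (limma adjusted p = 0.0634), with cyclic loess over every mouse miRNA (limma adjusted p = 0.0952) and with the replicate block (limma adjusted p = 0.175), while the lowest limma adjusted p over the alternatives was 0.0016.

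The ratio of a member to let-7e on the same array does not depend on scaling, and only its difference between arrays is read here, since probes of different miRNAs differ in brightness. For let-7a it was 3.21, 3.00, 3.52 and 2.84 in db/+ and 4.32, 4.51, 4.55 and 4.41 in db/db on the log2 scale. For let-7i it was 0.28, 0.63, 0.44 and 0.29 in db/+ and 1.49, 1.28, 1.67 and 1.22 in db/db. The strains did not overlap for either, nor for the other 6 members.

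The strain difference of this ratio was largest for let-7c at 1.40, followed by let-7b (1.37), let-7d (1.35), let-7a (1.30), let-7f (1.28), miR-98 (1.16), let-7g (1.09) and let-7i (1.01). Each of the 8 had an exact two-sided permutation p of 0.0286, the smallest that the 70 assignments of 8 arrays allow, and an adjusted exact p of 0.0364 over all 126 miRNAs set against let-7e. Of those 126, 78.6% were higher relative to let-7e by the same test, with a median difference of 1.15, so the members shared this difference with most other miRNAs of the array. miR-98 had a difference of 0.59 with normexp background correction (exact permutation p = 0.0857, adjusted over the 8 members). Adjusted in that way, its exact permutation p as reported was 0.0286.

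**Figure D4:**
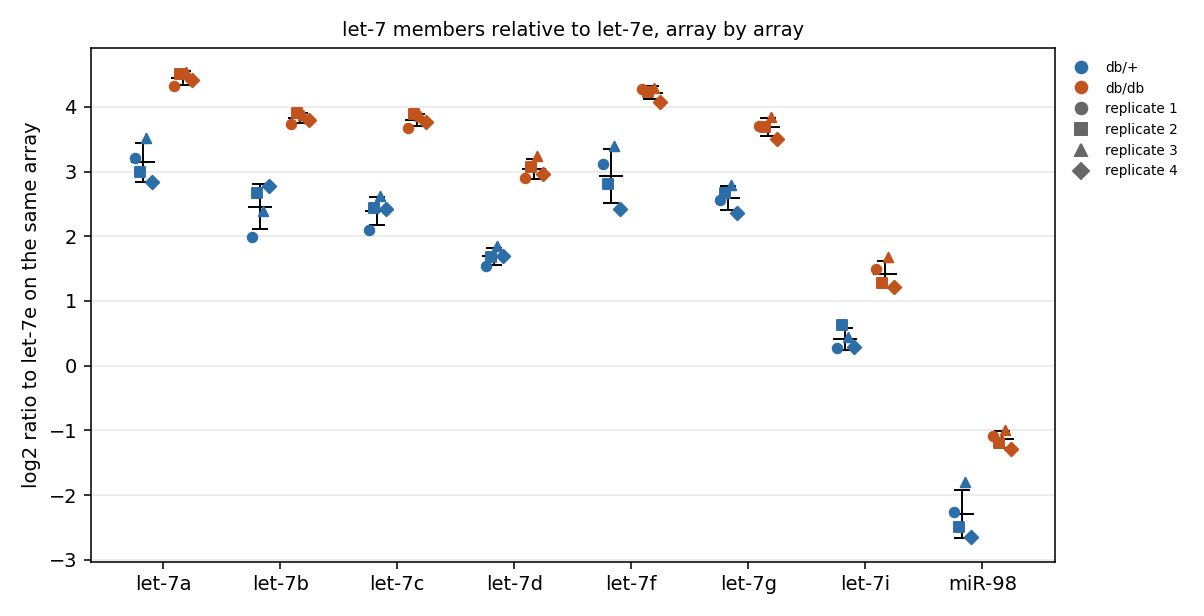
Log2 ratio of each member to let-7e on the same array, db/+ in blue and db/db in orange, with marker shapes for the replicates and black bars for the mean ± SD (n = 4 per strain). For every member all 4 db/db arrays lie above all 4 db/+ arrays, by 1.01 (let-7i) to 1.40 (let-7c) between the means.

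Between members no difference in the response was shown. Of the 28 pairs, 0 passed on the within-array ratio (two-sided exact permutation tests, smallest adjusted p = 0.533 over the pairs), and 1 had an unadjusted exact p under 0.05. That pair was let-7c over let-7i, with a ratio of 1.81 to 2.18 in db/+ and 2.18 to 2.60 in db/db, where the highest db/+ and lowest db/db values nearly met. Its difference was 0.40 (exact permutation p = 0.0286). That p is the smallest that 4 against 4 arrays allow, so a single differing pair could not pass after adjustment over 28 pairs. let-7a and let-7f, neighbours that differ by 1 base, had a difference of 0.02, and let-7b and let-7c, also neighbours that differ by 1 base, had -0.04. With 4 arrays per strain, a p above the threshold does not show that the members move alike.

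Across the 8 arrays the members with the most similar profiles were let-7c and let-7d, with a root mean square difference of 0.08 between their profiles, each centred on its mean. let-7f and miR-98, which share the Huwe1 locus, followed with 0.11, and let-7a and let-7f with 0.12. The least similar pair was let-7b and let-7f, at 0.44. let-7b and let-7c, which share 1 cluster and differ at 1 base, stood at 0.17. The order thus did not follow the number of differing bases throughout, since let-7c and let-7d differ at 3 bases and lie on different chromosomes. let-7a, let-7c and let-7f each have 2 gene copies on different chromosomes, so their profiles cannot be assigned to 1 cluster. These values are a description over 8 arrays that also share the scaling.

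Among the other tested miRNAs, those closest to the mean profile of the 8 members were miR-29c* (0.07), miR-126-3p (0.11) and miR-192 (0.13), against a median of 0.32 over the other tested miRNAs. miR-126-3p is known from endothelial cells and miR-192 from epithelial cells of liver and gut. None of these 3 passed between the strains, with log2 fold changes of 0.19, 0.10 and 0.15 (limma adjusted p = 0.411, 0.737 and 0.56). The closest, miR-29c*, was dim, with mean log2 scaled signals of 4.28 in db/+ and 4.47 in db/db. The dimmest member, miR-98, had means of 6.27 and 6.43. The members themselves lay at 0.09 (let-7d) to 0.26 (let-7b) from their mean profile and let-7e at 0.63.

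Of the miRNAs that share transcripts with let-7 members, 1 passed as higher, a call that most other processing ended. miR-125b-5p, which is known to be made together with let-7c and miR-99a at one locus and with let-7a and miR-100 at another, measured 8.17, 8.02, 8.29 and 7.98 in db/+ and 8.50, 8.77, 8.61 and 8.74 in db/db. The strains did not overlap, and the log2 fold change was 0.54 ± 0.14 (SE; limma adjusted p = 0.0281). On db/+ replicates 2 and 4, 75% and 50% of its spots were well above background. This call held in 2 of the 8 fits that left out 1 array, those without db/+ replicate 3 and without db/db replicate 1. Without db/+ replicate 4, with the arrays kept scaled anew, miR-125b-5p had 0.39 (limma adjusted p = 0.245, the highest of those 8 fits, whose lowest was 0.0228). On the reported scaling the other db/+ arrays lay at 8.02 to 8.29, against a db/db mean of 8.65. The new scaling thus also lowered the 0.39. The call was also lost under the other ways of scaling, with limma adjusted p = 0.2 (75th percentile), 0.0634 (quantile), 0.073 (cyclic loess), 0.344 (cyclic loess over every mouse miRNA) and 0.993 (no scaling). The same held with normexp (limma adjusted p = 0.271), raw median intensities (0.541), deposited scores (0.43), no filter (0.0651), the mean of log2 probe values (0.0515) and the replicate block (0.513). Without db/+ replicates 1 and 4 (limma adjusted p = 0.317) or 2 and 4 (0.327) it was lost too, and the lowest limma adjusted p over the alternatives was 0.0107, with array weights. miR-99a had 0.21 ± 0.18 (limma adjusted p = 0.438) and miR-100 had -0.02 ± 0.17 (limma adjusted p = 0.961).

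The partner strands, the opposite arms of the let-7 hairpins, gave almost no signal. Of the 7 on the array (let-7b*, let-7c-1*, let-7c-2*, let-7d*, let-7f*, let-7g* and let-7i*), 6 were detected on no array and 0 could be tested. let-7c-2* was detected on db/+ replicates 1 and 4 alone, with at most 10% of its spots well above background on any array.

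The let-7 family is made in most cell types, so the makeup of the tissue bears on its level, and in whole liver fewer cells of a type and less RNA per cell cannot be told apart. Of 3 hepatocyte miRNAs (miR-122, miR-192 and miR-194) 0 passed between the strains, which does not show that they were unchanged. Their summed scaled signals were 29923 to 72318 in db/+ and 51075 to 55164 in db/db. Of 5 leukocyte miRNAs 2 could be tested and both fell, with sums of 377 to 484 in db/+ and 201 to 285 in db/db. Of 5 bile duct miRNAs 2 could be tested and 1 rose, with sums of 54.2 to 68.8 in db/+ and 73.5 to 104 in db/db. None of the 4 skeletal muscle miRNAs was detected on any array. Of 4 neural miRNAs, miR-9 and miR-124 were detected on no array, while the other 2 were detected on some array and 0 could be tested. The part of the leukocyte and bile duct cells in the let-7 values was not tested.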

How the data were processed

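Spot intensity was read from the deposited scanner output, whose headers name Feature Extraction 9.5.3.1 (9.3.5 in the series text). The processed intensity was background-subtracted by the authors' scanner software and not scaled between arrays. Flags of another kind, 0 or 1 for detection, background, saturation and outlier spots, are also per the file headers. The deposited whole-series table held raw median spot intensity. For 139 miRNAs the deposited files also give 1 score each, described as median normalized and log transformed; its log base is not given in the sources used here, so its values are in score units.

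Control and outlier spots were left out, spots were averaged per probe and probes per miRNA, and arrays were scaled to a common median of the miRNAs flagged as detected throughout. Scaled values under 4.59, the typical lowest detected signal of an array (median of the 8), were set to it, and log2 was taken. Tested were the 127 miRNAs detected throughout db/+ or throughout db/db, with limma 3.58.1 in R 4.3.3, strain as the only term, two-sided. Within-array ratios were tested by exact permutation. The procedure was tested on simulated data with independent noise of the same SD for all miRNAs and both strains. That test does not cover arrays that differ in brightness or strains that differ in SD. Replicates are separate animals by the series text. The titles number db/+ replicates 3 and 4, and the other db/+ numbers only name arrays. The titles' shared numbers 3 and 4 had correlations of deviations of 0.04 and 0.31, so they were not taken as pairs. The number of arrays limits the precision.

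Named were the 8 members, let-7e, partner strands, miRNAs of shared transcripts, the 3 closest profiles and miR-122. The members and lists were chosen with earlier results of these data known. Alternatives covered scaling, background, signal, floor, filter, probe averaging, outlier spots, arrays, array weights, SAM and a replicate block. Gene names and neighbours come from RefSeq (GRCm38.p6), whose coordinates were not used.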

Additional observations from a re-analysis of the deposited data

How the results depend on the processing

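In the fits tried, 0 members passed except with array weights, where 3 did, and without db/+ replicates 2 and 4, where 1 did. The members' median log2 fold change of 0.29 was 0.023 under quantile normalization, 0.21 under cyclic loess and 0.63 under cyclic loess over every mouse miRNA, floored values included; which of these 2 loess versions to list as the planned one was decided after the values of the second were seen. Leaving out 1 array gave medians of 0.13 (without db/+ replicate 4) to 0.32. The direction was negative for let-7g at -0.038 (75th percentile), -0.21 (quantile), -0.0051 (cyclic loess) and -0.045 (without db/+ replicates 1 and 3). For let-7i it was negative at -0.12 (75th percentile), -0.072 (quantile), -0.093 (cyclic loess), -0.034 (no scaling), -0.0060 (outlier spots kept), -0.059 (without db/+ replicates 1 and 4) and -0.26 (without 1 and 3). For miR-98 it was negative at -0.051 (quantile), -0.16 (normexp), -0.045 (raw median intensities), -0.015 in score units (deposited scores) and -0.10 (without 2 and 4). let-7f had -0.020 without 2 and 4, and let-7b -0.11 without 1 and 3. Fits without db/+ replicate 4, alone or with replicate 1 or 2, scaled the arrays kept anew, at a level that lowered the members' log2 fold changes. Their signs and sizes thus do not show the removal of arrays alone. With 1 array left out, let-7g ran from -0.016 to 0.18 and let-7i from -0.13 to 0.15. let-7a and let-7d stayed above 0 in every fit, and let-7c did except under quantile normalization, where it was 0. Against let-7e, miR-98 also missed the threshold with raw median intensities (0.62) and without db/db replicate 1 (1.14) or 3 (1.11). Without db/+ replicates 2 and 4 the differences from let-7e were 1.08 for let-7a, 1.63 for let-7b and 0.96 for let-7f, and without 1 and 3 they were 1.53, 1.10 and 1.61. With a replicate block on numbers 3 and 4, over 4 arrays, the members' median was 0.37 and 0 passed (limma, smallest adjusted p = 0.619), where 8 of 127 miRNAs passed, and the differences from let-7e were 1.08 to 1.33. The causes of these shifts were not tested. miR-98 is the member whose low signal on the dimmest array limits it most.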
